A study of Mus musculus with 8 samples.

Results

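The genes described here encode 10 proteins of the contractile apparatus of skeletal muscle. They are the myosin heavy chains Myh1, Myh2, Myh3, Myh4, Myh7 and Myh8, the fast regulatory light chain Mylpf, the fast calcium pump Atp2a1, and the slow and fast troponin T genes Tnnt1 and Tnnt3. They were taken by symbol from the deposited counts, and all 10 were found among 47517 symbols. Total RNA of mouse inner ear, taken on postnatal day 14, was sequenced from heterozygous mutants (4 samples) and from their wild-type littermates (4 samples). The mutants carry a frameshift in the reading frame of TRα1, the thyroid hormone receptor encoded by Thra, and the labels give no allele name, strain or sex. The labels name the tissue as inner ear, and the series title names it as cochlea. Neither says whether a sample is 1 animal, 1 ear or a pool, though sex-linked counts given below point to pools in some libraries. The p-values thus speak only of sample-to-sample spread, possibly technical. The mutation is heterozygous in every tissue of the mutants, muscle included.

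Skeletal muscle fibres are sorted by the heavy chain they make. Fast fibres contain the IIA, IIX or IIB chain (Myh2, Myh1 and Myh4), slow fibres contain the chain encoded by Myh7, and immature fibres contain the embryonic and neonatal chains (Myh3 and Myh8), which are replaced after birth. Thyroid hormone is a classical regulator of this switch: in rodent limb muscle it favours the fast chains and the fast calcium pump, lowers the slow chain, and speeds the loss of the developmental chains. The inner ear has no skeletal muscle of its own, while the tensor tympani and stapedius lie next to it in the middle ear.

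Total counts lay between 18930841 and 23064578 per library. Titles hold 1 number in replicates 1 and 4 of each genotype and 2 numbers in replicates 2 and 3, which the labels do not explain and which was treated as a possible batch. Mutant replicate 3 and wild-type replicates 2 and 3 held 520 to 545 counts of the Y-linked Eif2s3y beside 3622 to 6228 counts of Xist. The other libraries held at most 2 Eif2s3y counts. Xist is made in females, so this pairing points to RNA of both sexes, and hence of more than 1 animal, in each Eif2s3y-rich library. All of these carry the 2-number title form. Mutant replicate 2 shares that form but showed 0 Eif2s3y counts beside 10682 of Xist. The sex mix was thus unequal between the genotypes, and its effect was not tested. Over the 21392 genes tested with edgeR, mutant libraries had 1 gene called higher (0.00467%) and 8 called lower (0.0374%), at an adjusted p threshold of 0.05.

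The heavy chain genes Myh3, Myh2, Myh1, Myh4 and Myh8 follow each other in this order on the plus strand of mouse chromosome 11. In the GENCODE M21 annotation of GRCm38 they occupy chr11:67078300-67102291, chr11:67171027-67197517, chr11:67200052-67224575, chr11:67238029-67260446 and chr11:67277124-67308634. Myh7 lies on the minus strand at chr14:54970684-54994626. Atp2a1 (chr7:126445858-126463108, minus strand), Mylpf (chr7:127208890-127214298, plus strand), Tnnt1 (chr7:4504570-4516382, minus strand) and Tnnt3 (chr7:142498836-142516009, plus strand) share chromosome 7. All 10 are protein-coding.

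The promoters of the 3 adult fast chains and of the neonatal chain are shown because these neighbours carried most heavy chain counts. RefSeq windows of GRCm38.p6 were available for 9 of the 10 genes, and the 250 bases before the start of transcription are printed 5′ to 3′, with capitals on the longest run of bases present in all 4 windows.
Myh1, chr11:67199852-67200101, plus strand: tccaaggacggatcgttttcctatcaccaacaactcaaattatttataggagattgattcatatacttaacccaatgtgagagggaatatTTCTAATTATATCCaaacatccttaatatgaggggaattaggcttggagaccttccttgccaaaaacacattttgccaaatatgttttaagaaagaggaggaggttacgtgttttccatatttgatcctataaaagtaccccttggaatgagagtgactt
Myh2, chr11:67170777-67171026, plus strand: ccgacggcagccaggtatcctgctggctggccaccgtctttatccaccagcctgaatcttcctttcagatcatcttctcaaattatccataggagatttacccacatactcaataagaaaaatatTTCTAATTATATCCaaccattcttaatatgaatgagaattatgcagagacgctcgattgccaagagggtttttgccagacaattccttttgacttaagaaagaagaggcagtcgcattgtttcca
Myh4, chr11:67237562-67237811, plus strand: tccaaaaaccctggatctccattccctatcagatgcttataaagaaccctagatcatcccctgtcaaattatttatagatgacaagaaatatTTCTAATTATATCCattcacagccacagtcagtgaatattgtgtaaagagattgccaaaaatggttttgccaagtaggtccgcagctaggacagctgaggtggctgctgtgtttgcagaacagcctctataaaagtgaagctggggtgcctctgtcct
Myh8, chr11:67276874-67277123, plus strand: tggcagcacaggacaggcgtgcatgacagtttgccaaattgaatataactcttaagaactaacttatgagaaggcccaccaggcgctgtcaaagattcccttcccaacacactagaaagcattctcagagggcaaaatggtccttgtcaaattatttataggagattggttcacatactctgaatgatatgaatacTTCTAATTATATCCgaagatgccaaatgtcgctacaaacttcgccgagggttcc

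The shared run of 14 bases, TTCTAATTATATCC, began 160, 125, 158 and 54 bases before the RefSeq start in Myh1, Myh2, Myh4 and Myh8. For Myh1 and Myh4 the RefSeq start differs from the GENCODE start given above, so the distance depends on the annotation. Searched on both strands, it occurred in 4 of 32851 RefSeq promoter windows of the same length, or 0.0122%, and those 4 windows were the ones printed. It was found in the sequences, not among the motifs chosen earlier, which were searched on both strands as well. The E-box CANNTG was in the windows of 7 of the 9 genes, against 66.2% of all windows. The letters TATAAA were in 5 of 9 (12.4% of all), CATTCC, the core of the muscle MCAT element, in 3 of 9 (12.6%), and the thyroid hormone receptor half-site AGGTCA in Atp2a1 alone (14% of all). The core of the MEF2 element, CTA and TAG held 4 bases apart, was in 0 of 9 (3.2% of all). A match is a description of letters and not of binding.

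All 10 genes were low in every library. Together they held 323 to 501 counts in mutant and 324 to 550 counts in wild-type libraries, between 0.00151% and 0.00252% of the counts of a library. Other genes of muscle fibres spanned a wide range. The muscle creatine kinase Ckm had 0 to 16 counts in mutant and 0 to 20 in wild-type libraries, and skeletal actin Acta1 had 52 to 80 in mutant and 23 to 93 in wild-type libraries. The slow myosin-binding protein Mybpc1 had 744 to 1384 counts in mutant and 642 to 1423 in wild-type libraries, and muscle glycogen phosphorylase Pygm had 560 to 814 in mutant and 571 to 747 in wild-type libraries. The sarcomere and triad list of 30 genes summed to 163 to 186 CPM (counts scaled to the normalized size of the library) in mutant and 152 to 185 CPM in wild-type libraries. Of this sum, Pygm alone gave 25.8 to 40.5 CPM in mutant and 29.7 to 34.8 CPM in wild-type libraries. Which cells these counts came from was not tested, so neither they nor the sum measure muscle content. In the list of 11 myogenic and satellite cell genes, Myod1, Myf5 and Myf6 had at most 2 counts in any library, while Cdh15 had 65 to 100 counts in mutant and 58 to 92 in wild-type libraries and Megf10 had 742 to 884 in mutant and 567 to 830 in wild-type libraries. All 15 inner ear markers passed the filter, with summed levels of 3840 to 5900 CPM in mutant and 4140 to 5760 CPM in wild-type libraries. Coch and Otos carried most of that sum, and the outer hair cell motor Slc26a5 averaged 3.81 CPM in mutant and 2.91 CPM in wild-type libraries. The summed level of the 10 muscle genes was 14.9 to 22 CPM in mutant and 16.9 to 25.5 CPM in wild-type libraries. In bulk tissue, fewer cells of a type and less RNA per cell cannot be told apart.

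No difference between the genotypes was called for any of the 10 genes. All 10 passed the expression filter, 0 were called higher (background 0.00467%) and 0 lower (background 0.0374%) in edgeR, 0 had an unadjusted p under 0.05, and the groups overlapped in each. DESeq2 and limma-voom called 0 as well, with lowest adjusted p of 0.892 and 0.866. Among all genes tested 0.0421% were called in edgeR and 0.318% in DESeq2, an unadjusted edgeR p under 0.05 was found for 5.30%, and 2.69% had groups that did not overlap. At these shares a count of 0 among 10 genes does not stand apart from the background. The log2 fold change was negative for 7 and positive for 3, with a median of -0.16 against -0.0061 over all genes tested.

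**Figure D1:**
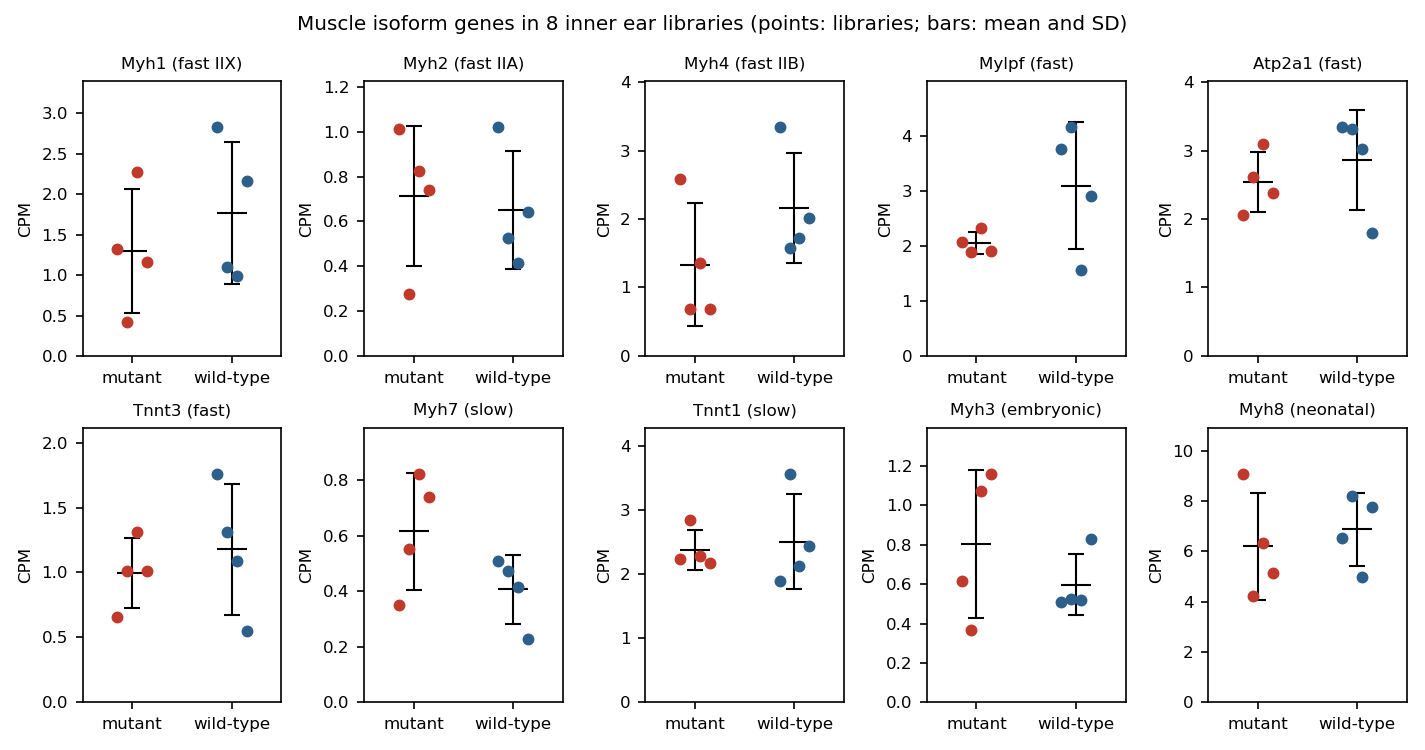
Level of each of the 10 muscle genes in CPM (vertical axis from 0, scale differs per panel) in the 4 mutant and 4 wild-type libraries. Points are libraries in replicate order and bars are mean and SD; the groups overlap in every panel.

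Of the fast genes, Mylpf, which encodes the regulatory light chain that sits on the neck of fast myosin, had the smallest p. It held 47, 41, 48 and 36 counts in mutant replicates 1 to 4, against 81, 79, 30 and 63 counts in wild-type replicates 1 to 4. The mutant libraries lay close together, while 3 wild-type libraries were above all of them and wild-type replicate 3 was below. Mylpf averaged 2.04 ± 0.203 CPM in mutant and 3.09 ± 1.15 CPM in wild-type libraries (SD, n = 4 each). In edgeR its log2 fold change was -0.60 with an SE of 0.29 (unadjusted p = 0.0691, adjusted p = 0.925). The Mylpf log2 fold change was -0.81 without wild-type replicate 3 (edgeR unadjusted p = 0.00296, adjusted p = 0.233, in a range of 0.233 to 1 over all alternatives). In log2 CPM, mutant minus wild-type was -0.71 where titles hold 1 number and -0.28 where they hold 2.

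Myh4, the chain of the fastest mouse fibres, had 59, 15, 28 and 13 counts in mutant replicates 1 to 4, against 72, 30, 33 and 44 in wild-type replicates 1 to 4. In both genotypes replicate 1 was highest, and 3 mutant libraries lay below every wild-type library. The log2 fold change of Myh4 was -0.70 (SE 0.46, edgeR adjusted p = 0.971), and -1.24 without mutant replicate 1 (adjusted p = 0.973, in a range of 0.281 to 1 over all alternatives). Split by title form, its difference in log2 CPM was -0.90 (1 number) and -0.70 (2 numbers).

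Myh1, the IIX chain next to it, had 30, 9, 47 and 22 counts in mutant replicates 1 to 4, against 61, 21, 19 and 47 in wild-type replicates 1 to 4. Both groups spread widely, and the lowest library was mutant replicate 2. The log2 fold change of Myh1 was -0.46 (SE 0.52, adjusted p = 1), between -0.88 and -0.12 with each library left out in turn, and the difference split by title form was -0.95 (1 number) and -0.051 (2 numbers). The IIA chain Myh2 was scarcer, with 6 to 23 counts in mutant and 8 to 22 in wild-type libraries. Its log2 fold change of 0.12 (SE 0.46, edgeR adjusted p = 1) turned negative when mutant replicate 1 or wild-type replicate 3 was left out.

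Atp2a1, which encodes the pump that returns calcium to the sarcoplasmic reticulum of fast fibres, had 47, 57, 64 and 45 counts in mutant replicates 1 to 4, against 72, 63, 58 and 39 in wild-type replicates 1 to 4. Tnnt3, the fast troponin T that ties the calcium sensor to the thin filament, had 15, 22, 27 and 19 counts in mutant replicates, against 38, 25, 21 and 12 in wild-type replicates. In both genes wild-type replicate 1 was highest and wild-type replicate 4 lowest, with the mutant libraries in between. Log2 fold changes were -0.17 (SE 0.24) for Atp2a1 and -0.25 (SE 0.38) for Tnnt3, both at an edgeR adjusted p of 1. That of Tnnt3 was 0.026 without wild-type replicate 1.

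The slow chain Myh7, also the main ventricular chain of human heart, was the lowest of the 10 genes per length. It had 8, 12, 17 and 14 counts in mutant replicates 1 to 4, against 11, 9, 8 and 5 in wild-type replicates 1 to 4. Of the 4 mutant libraries 3 lay above every wild-type library, and mutant replicate 1 fell among them. The log2 fold change of Myh7 was 0.59 (SE 0.41, adjusted p = 0.972), and its differences of 0.46 and 0.52 had the same sign in both title forms. Its counts within a genotype varied no more than about sampling noise, at a chi-square per degree of freedom of 1.2, where 1 is counting error alone. Tnnt1, the slow troponin T, held 51, 62, 47 and 41 counts in mutant replicates, against 41, 68, 41 and 53 in wild-type replicates. The log2 fold change of Tnnt1 was -0.073 (SE 0.23, adjusted p = 1), which turned positive without wild-type replicate 2.

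Among the developmental chains, Myh3, the embryonic form, had 14, 8, 22 and 22 counts in mutant replicates 1 to 4, against 11, 10, 10 and 18 in wild-type replicates 1 to 4. Its log2 fold change was 0.42 (SE 0.42, edgeR adjusted p = 1). Myh8, the neonatal form, held 207, 92, 131 and 97 counts in mutant replicates, against 141, 156, 96 and 169 in wild-type replicates. The highest and the lowest library were both mutant, replicates 1 and 2. Myh8 averaged 6.2 ± 2.11 CPM in mutant and 6.88 ± 1.44 CPM in wild-type libraries (SD, n = 4 each), and edgeR gave -0.15 as its log2 fold change with an SE of 0.26 (adjusted p = 1). Within genotypes its counts had a chi-square per degree of freedom of 10.8, and Myh4 and Myh1 had 9.52 and 9.2, so their spread was far above counting error.

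The intervals show what these libraries could and could not resolve. For Myh8 the 95% interval of the mutant over wild-type fold ran from 0.603 to 1.35, for Tnnt1 from 0.663 to 1.36 and for Atp2a1 from 0.612 to 1.29. Changes of 2-fold in either direction lay outside these 3 intervals. For Myh7 the interval ran from 0.792 to 2.86, for Myh3 from 0.693 to 2.58 and for Myh2 from 0.532 to 2.23, so a 2-fold increase lay within each at this depth. For Myh4 it ran from 0.299 to 1.28, for Myh1 from 0.323 to 1.64, for Mylpf from 0.421 to 1.04 and for Tnnt3 from 0.464 to 1.53, and a 2-fold decrease lay within each.

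**Figure D2:**
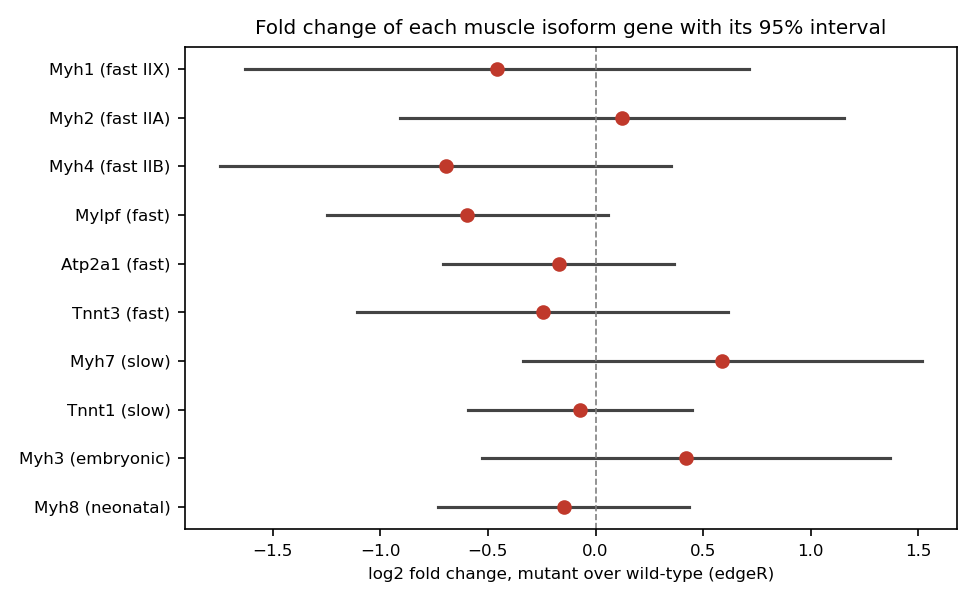
Log2 fold change of each gene (horizontal axis, mutant over wild-type, edgeR; point) with its 95% interval (line), fast genes above slow and developmental ones. All 10 intervals include 0; that of Mylpf runs from -1.25 to 0.057.

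The mixture of heavy chains was then compared within each library, which does not depend on the library's size. Levels were divided by the length of the annotated exons of each gene. Myh8 was the highest of the 6 chains in 8 of 8 libraries, with 35.7% to 51.1% of the heavy chain level in mutant and 30.2% to 51.7% in wild-type libraries. In wild-type replicate 1 it was nearly equalled by Myh4 (30.2% and 30.1%). Annotated exons of Myh8 cover 11772 bases, while its longest transcript has 6149. Divided by the longest transcript, Myh8 took 49.7% to 64.6% in mutant and 44% to 65.8% in wild-type libraries.

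The adult fast chains together took 46%, 31.1%, 46.3% and 36% in mutant replicates 1 to 4, against 62.1%, 37.8%, 47.2% and 48.2% in wild-type replicates 1 to 4. Means were 39.9 ± 7.56% in mutant and 48.8 ± 9.99% in wild-type libraries (SD, n = 4 each). The difference was above the mutant SD and below the wild-type SD, and the ranges overlapped. The developmental chains averaged 53.8 ± 5.44% in mutant and 47.8 ± 9.71% in wild-type libraries (SD, n = 4 each). With the longest transcript as the length, the adult fast chains averaged 29.3 ± 6.31% in mutant and 36.5 ± 9.49% in wild-type libraries. The developmental chains then averaged 64.6 ± 4.95% in mutant and 60.2 ± 9.42% in wild-type libraries. Which class was larger in the wild-type mean thus depended on the length used. Per annotated exon length, the slow chain took 2.41%, 9.12%, 6.33% and 7.71% in mutant replicates, against 3.21%, 4.07%, 4.57% and 1.68% in wild-type replicates. Mutant replicates 2, 3 and 4 lay above all wild-type libraries and mutant replicate 1 among them. As a share of heavy chain counts the slow chain was highest in mutant replicate 2, at 8.45% (exact Clopper-Pearson 95% interval 4.44% to 14.3%). It was 4.6% (2.01% to 8.86%) in the highest wild-type library, replicate 3, and 1.68% (0.549% to 3.88%) in the lowest, replicate 4. The interval of mutant replicate 2 overlapped that of wild-type replicate 3 but not that of wild-type replicate 4, and all of them cover counting error only. These shares are sums over chosen genes and were not tested.

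**Figure D3:**
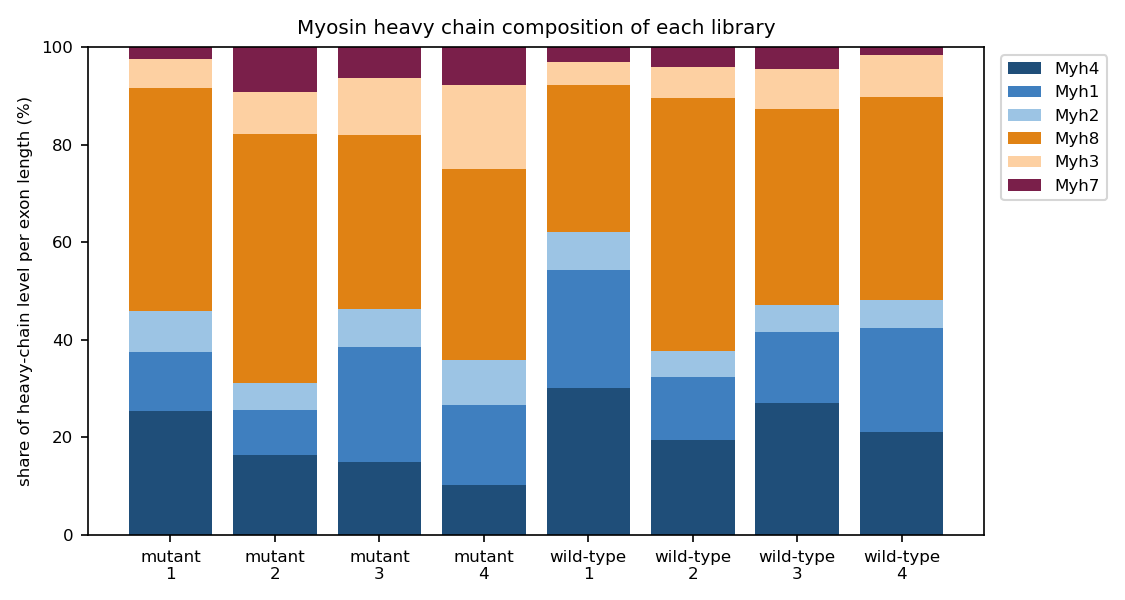
Share of each of 6 myosin heavy chain genes (stacked bars, percent of the summed level per exon length) in each library, mutant libraries on the left. Myh8 is the largest share in every bar, and Myh7 ranges from 1.68% to 9.12%.

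The ratio of slow to fast troponin T was also compared within libraries. The log2 ratio of Tnnt1 to Tnnt3 counts was 1.73, 1.47, 0.788 and 1.09 in mutant replicates 1 to 4, against 0.108, 1.43, 0.949 and 2.1 in wild-type replicates 1 to 4. The wild-type libraries spanned the mutant ones on both sides. Means were 1.27 ± 0.416 in mutant and 1.15 ± 0.837 in wild-type libraries (SD, difference 0.13, two-sided exact permutation p = 0.8, n = 4 and 4, where the smallest possible p is 0.0286). The difference was negative when mutant replicate 1 or wild-type replicate 1 was left out, and within the 2-number title form.

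Per annotated exon length over all 8 libraries the order was Mylpf (2.42 ± 0.891 CPM per kilobase, SD, n = 8), Tnnt1 (1.11 ± 0.241), Atp2a1 (0.778 ± 0.168), Tnnt3 (0.687 ± 0.244), Myh8 (0.555 ± 0.145), Myh4 (0.291 ± 0.151), Myh1 (0.241 ± 0.127), Myh3 (0.116 ± 0.0476), Myh2 (0.0956 ± 0.0377) and Myh7 (0.0594 ± 0.0227). The ranges of all neighbours in this order overlapped. Mylpf was above Tnnt1 and Myh8 above Myh4 in 8 of 8 libraries, whereas Myh4 was above Myh1 in 5. With the longest transcript as the length Myh8 moved up to rank 3 and Atp2a1 down to rank 5. The fast light chain and the slow troponin T thus stood above every heavy chain in mean level per length, under both lengths.

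The 10 genes did not move as 1 group across libraries. Over the 45 pairs, Pearson's r of log2 CPM across the 8 libraries had a median of 0.0996 and ranged from -0.548 to 0.954, and 28 pairs were above 0. The pair with the highest r was Atp2a1 and Tnnt3 (r = 0.954, rho = 1). Myh1 and Myh2, neighbours on chromosome 11, had r = 0.821, Myh4 and Myh8 0.691 and Myh1 and Myh4 0.679. Mutant replicate 2 was the lowest library for Myh1, Myh2, Myh3 and Myh8 and within rounding of the lowest for Myh4. These values are descriptions over 8 libraries of both genotypes, and several of the genes rest on counts under 30.

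The genes whose log2 CPM was most like the mean of the 10 were Ap1s1 (r = 0.96), Ccdc97 (0.954), Gm26737 (0.949), Gpaa1 (0.931) and Rxrb (0.929), over 8 libraries and 19376 candidates. These were the top of that many candidates, of which 13 had an r of at least 0.9. How many would reach it with no relation to the 10 was not tested. Of the 50 most alike, 0 belonged to the muscle lists, which had 74 genes among the candidates. With 74 of 19376 candidates, a count of 0 among 50 does not stand apart from the background.

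**Figure D4:**
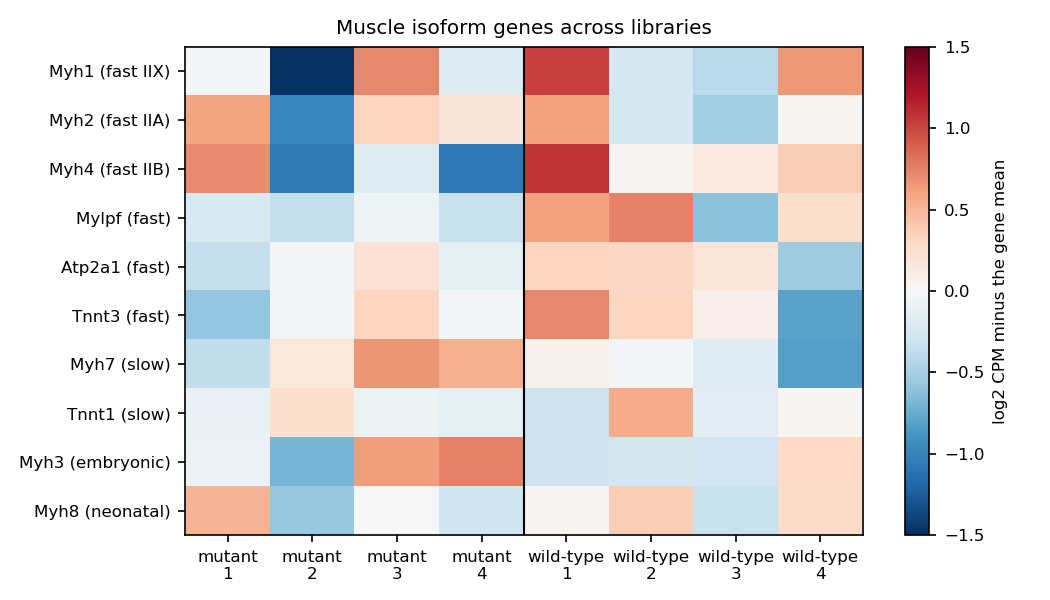
Log2 CPM of each gene minus its mean over the 8 libraries (colour, red above and blue below the mean), mutant libraries left of the line. Mutant replicate 2 is low for Myh1, Myh2, Myh3, Myh4 and Myh8, and no row separates the genotypes.

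Some reads of these genes cannot be placed with certainty. Of the 50-base stretches in the longest transcript, 26.7% of those of Myh1, 26.9% of Myh2, 21.4% of Myh8 and 18.9% of Myh4 also occur in another gene, mostly in each other, against 4.81% of Myh3. For Myh7 the share was 22.2%, nearly all of it shared with its neighbour Myh6, a cardiac chain. Mylpf, Tnnt1 and Tnnt3 shared 0%, and Atp2a1 0.117%. Atp2a1 shares 21.9% of its exon bases with Rabep2 on the opposite strand, which had 362 to 473 counts in mutant and 402 to 442 in wild-type libraries. Myh7 shares 13.3%, Myh1 8.11% and Myh2 3.32% with antisense transcripts, and whether counting used strand is not given in the sources used here. The antisense 9430073C21Rik, which overlaps Myh2, had 0 counts in every library, and Mhrt, which overlaps Myh7, had at most 2.

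No other gene of fast fibres was called. Of 12 listed 10 were tested and 0 were called, 3 positive and 7 negative, with a median log2 fold change of -0.028. The fast inhibitory troponin Tnni2 had 8 to 22 counts in mutant and 13 to 19 in wild-type libraries (log2 fold change -0.40, SE 0.36, edgeR adjusted p = 1). Myh13, the extraocular chain that follows Myh8 on the chromosome, had 26 to 31 counts in mutant and 27 to 53 in wild-type libraries (-0.33, SE 0.25). The muscle phosphoglycerate mutase Pgam2 had 79 to 95 counts in mutant and 53 to 84 in wild-type libraries (0.32, SE 0.16, adjusted p = 0.925). The calcium buffer parvalbumin (Pvalb) is also abundant in nervous tissue and had 2602 to 3400 counts in mutant and 2617 to 3616 in wild-type libraries (-0.14, SE 0.10).

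Of the slow fibre genes 0 were called. Their fold changes were positive for 11 of 12 tested, with a median log2 fold change of 0.23, against 10341 positive of 21392 over all genes. Among the 11, Myl2 (0.0093), Atp2a2 (0.028) and Pln (1.3e-05) were near 0. The ventricular and slow light chain Myl3 had 119 to 177 counts in mutant and 69 to 119 in wild-type libraries (0.51, SE 0.20, edgeR adjusted p = 0.924). The slow inhibitory troponin Tnni1 (0.45, SE 0.32, 30 to 54 against 20 to 39 counts) and the slow calcium-binding troponin Tnnc1 (0.62, SE 0.51, 8 to 33 against 7 to 17 counts) were at low counts. Calsequestrin 2, the slow and cardiac calcium store (Casq2), had 58 to 66 counts in mutant and 36 to 55 in wild-type libraries (0.32, SE 0.20, adjusted p = 0.966). The Casq2 groups overlapped in CPM, at 2.59 to 3.49 in mutant and 1.66 to 2.68 in wild-type libraries. The LIM protein Fhl1 had 831 to 988 counts in mutant and 751 to 832 in wild-type libraries, without overlap in CPM (0.14, SE 0.067, edgeR adjusted p = 0.925). Myh6, singled out after its values were seen because it shares sequence with Myh7, had 41 to 153 counts in mutant and 30 to 110 in wild-type libraries (0.35, SE 0.54, adjusted p = 1).

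In the list of developing and regenerating muscle 7 of 12 genes were tested and 0 called, 5 positive and 2 negative. Dlk1, an imprinted gene of immature muscle and other tissues, did not overlap, with 28 to 63 counts in mutant and 15 to 27 in wild-type libraries (edgeR log2 fold change 1.25, SE 0.30, adjusted p = 0.701). The embryonic light chain Myl4 had 189 to 262 counts in mutant and 236 to 395 in wild-type libraries (-0.48, SE 0.17, adjusted p = 0.911). The imprinted RNA H19 had 1300 to 7049 counts in mutant and 519 to 1982 in wild-type libraries (1.83, SE 0.62, adjusted p = 0.911). The adhesion molecule Ncam1 had 1845 to 2048 counts in mutant and 1428 to 1706 in wild-type libraries (0.22, SE 0.10, adjusted p = 0.924). In CPM its groups overlapped, at 85.6 to 98.1 in mutant and 65.7 to 89.6 in wild-type libraries. The acetylcholine receptor gamma subunit Chrng, a mark of immature junctions, had at most 4 counts and was not tested.

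Genes shared by all fibres divided evenly. Of 28 tested in the sarcomere and triad list 13 were positive and 15 negative, 0 were called, and the median was -0.042. Klhl41, which stabilizes the thin filament anchor nebulin, had 28 to 33 counts in mutant and 13 to 21 in wild-type libraries without overlap (edgeR log2 fold change 0.79, SE 0.25, adjusted p = 0.907). The mitochondrial subunit Cox8b (-0.36, SE 0.18), the Z-disc cap of titin Tcap (-0.51, SE 0.33) and the calcium-binding Hrc (0.43, SE 0.30) overlapped between the genotypes. Of the 7 tested genes of muscle lineage and satellite cells and of the 7 of the neuromuscular junction 0 were called. The satellite cell factor Pax7 had 37, 72, 35 and 77 counts in mutant replicates 1 to 4, against 0, 0, 35 and 0 in wild-type replicates 1 to 4. Its edgeR adjusted p was 0.927, and 0.0933 without wild-type replicate 3, the only wild-type library with a count, in a range of 0.0933 to 1 over all alternatives. Counts of exactly 0 beside higher ones were not particular to Pax7 or to 1 genotype. Ckm had 0 in wild-type replicate 2 and mutant replicate 3, and up to 20 elsewhere. Ampd1 of the sarcomere list had 0 in wild-type replicate 3 and mutant replicate 4, and up to 17 elsewhere. The cause of these zeros was not tested. The adult receptor subunit Chrne had 6 to 15 counts in mutant and 8 to 24 in wild-type libraries (-0.53, SE 0.43). Thin filament regulators gave 0 of 12, with a median of -0.032.

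Hormone-responsive genes of muscle outside the 10 were also not called, 0 of 7 tested with a median log2 fold change near 0. Dio2, which activates the hormone, had 1093 to 4852 counts in mutant and 829 to 1558 in wild-type libraries (1.38, SE 0.51, edgeR adjusted p = 0.924). The thyroid hormone and aromatic amino acid transporter Slc16a10 had 253 to 525 counts in mutant and 397 to 721 in wild-type libraries (-0.58, SE 0.25, adjusted p = 0.924). The uncoupling protein Ucp3 (0.28, SE 0.29) and the insulin-responsive glucose transporter Slc2a4 (-0.27, SE 0.30) were at 28 to 41 and 88 to 215 counts in mutant libraries and at 18 to 37 and 96 to 215 in wild-type libraries.

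Markers of other tissues were examined beside the muscle genes. Heart genes gave 0 of 4 called, all positive with a median log2 fold change of 0.29, and Myh6 among them is also in the slow fibre list. Nppa had 0 counts in all 8 libraries, which allows up to 3 counts or 0.132 to 0.159 CPM per library and covers counting error only. Smooth muscle gave 0 of 8, although Tagln and Cnn1 did not overlap in CPM. Tagln had 383 to 480 counts in mutant and 536 to 647 in wild-type libraries (-0.46, SE 0.12, edgeR adjusted p = 0.815), and Cnn1 had 16 to 29 in mutant and 27 to 40 in wild-type libraries (-0.59, SE 0.22, adjusted p = 0.924). The non-muscle heavy chains Myh9, Myh10 and Myh14 gave 0 of 3, brown fat 0 of 4 and inner ear markers 0 of 15. Marrow and blood gave 0 of 8 called, all negative with a median log2 fold change of -0.71, at summed levels of 5450 to 14200 CPM in mutant and 9000 to 35400 CPM in wild-type libraries. Tendon gave 0 of 6 called, all positive with a median log2 fold change of 0.70, at summed levels of 145 to 238 CPM in mutant and 101 to 127 CPM in wild-type libraries, among them Fmod (0.86, SE 0.16, edgeR adjusted p = 0.28; called in DESeq2). Mucosal epithelium had 4 of 9 tested genes called lower (Bpifa1, Krt4, Krt5 and Krt14), at summed levels of 4.26 to 6.39 CPM in mutant and 189 to 636 CPM in wild-type libraries. The call was lost under 1 of 21 alternatives for Bpifa1, 6 for Krt4, 4 for Krt5 and 7 for Krt14 (adjusted p up to 0.0937), while all 4 stayed lower in each. The part of these tissues in the muscle values was not tested.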

How the data were processed

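RNA of the inner ear was sequenced in 4 mutant and 4 wild-type samples. The authors deposited 1 file per sample with raw counts per gene symbol, whole numbers without normalization, and 47517 symbols. Per the submitters' processing notes, FastQC, STAR and HTSeq were used with build mm10 (no versions stated), and the labels' protocols name a total RNA kit with unique molecular identifiers. Annotation, strand setting and identifier use: not given in the sources used here. Of the symbols 15 have the form of a spreadsheet date and 45236 are gene names of GENCODE M21 (GRCm38), which gave coordinates and lengths.

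Counts were tested with edgeR 4.0.16 in R 4.3.3 (TMM normalization, default expression filter, robust quasi-likelihood, genotype as the only term). Benjamini-Hochberg adjustment ran over the 21392 genes tested, with a threshold of 0.05. The SE is the log2 fold change divided by the root of F, and the 95% interval uses the test's degrees of freedom. CPM uses normalized library sizes; log2 CPM has a prior count of 2. The troponin ratio uses a pseudocount of 0.5. The fit was tested on simulated data. Alternatives were other normalizations and filters, DESeq2 1.42.0, limma-voom (limma 3.58.1), non-robust estimation, title form or a muscle level from 10 other genes as covariate, a block, and each library left out.

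Beyond the 10 genes, up to 4 genes per muscle list and 2 per other list were named by smallest p. Others, given to show the range of levels or the split by title form, were chosen after their values were seen. The genes, lists and motifs were chosen with earlier results of these data known. Replicates were numbered in accession order.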

Additional observations from a re-analysis of the deposited data

Results flagged for a closer look

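Of 22 groups of 4 libraries examined, 2 had 1 library far from the others, where chance gives about 1 in 20. Tnnt1 stood at 2.85 CPM in mutant replicate 2, with the next mutant library at 2.28 CPM, a gap of 0.843 of the range of that group. Myh3 stood at 0.828 CPM in wild-type replicate 4, with the next wild-type library at 0.525 CPM, a gap of 0.955 of the range. Both rest on counts of 62 and 18.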

How the results depend on the processing

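The number of the 10 genes called was 0 under all 21 alternatives. The filter of at least 1 CPM in at least 4 libraries left 7 of them in the test (Myh2, Myh3 and Myh7 dropped out). The signs of Myh1, Myh3, Myh4, Myh7, Myh8, Atp2a1 and Mylpf held under every alternative run for them, but their sizes did not: with 1 library left out Myh1 lay between -0.88 and -0.12, Myh3 between 0.19 and 0.66, Myh8 between -0.39 and -0.0032 and Atp2a1 between -0.34 and -0.080. With each library left out in turn, log2 fold changes ranged from -0.095 to 0.44 for Myh2, from -0.17 to 0.14 for Tnnt1 and from -0.48 to 0.026 for Tnnt3. The Tnnt1 log2 fold change also turned to 0.021 with the muscle level as covariate and to 0.023 with that level computed without Ckm, an alternative chosen after seeing the data. The cause was not tested. The log2 difference in the Tnnt1 to Tnnt3 ratio ranged from -0.22 to 0.44 with each library left out, and was -0.056 among libraries with 2 numbers in the title. The labels do not pair the samples. Deviations of libraries with neighbouring title numbers correlated at 0.128, 0.252, 0.187 and -0.038, so 3 of 4 pairs were above 0.1, and replicates 2 and 3 but not 1 and 4 correlated best with their own number, so the replicate block is an assumption. It gave 17 genes higher and 12 lower, 0 of them among the 10, and Myh4, the 1 of the 10 with an unadjusted p under 0.05, at -0.83 (edgeR adjusted p = 0.281, the lowest of its range). DESeq2 called 19 genes higher and 49 lower over all genes. The median of the developmental list was 0.79 without a filter. Myh2, Myh3 and Myh7 had at most 23 counts in any library, which limits their precision.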

Other observations

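Many genes differed with the form of the sample titles, which is balanced between the genotypes. Of 21392 genes tested, 4171 (19.5%) had CPM ranges that did not overlap between the 4 libraries with 2 numbers in the title and the 4 libraries with 1 number. Among the 140 tested genes of the other lists 15 did so (10.7%), 11 of them higher and 4 lower in the 2-number libraries, and among the 10 muscle isoform genes 0. The cardiac heavy chain Myh6 had 77 to 153 counts in 2-number libraries, against 30 to 49 in 1-number libraries, and the cardiac inhibitory troponin Tnni3 had 50 to 87, against 22 to 43. Sarcomere genes were among the 15 as well, with Myom1 at 12.2 to 18.7 CPM in 2-number libraries, against 7.66 to 9.34 CPM, and Actn2 at 6.92 to 10.1 CPM, against 4.7 to 5.47 CPM. The calcium pump Atp2a2, taken from the slow fibre list, went the other way, at 204 to 232 CPM in 2-number libraries, against 259 to 285 CPM. Which cells its counts came from was not tested. The split was noticed in the data and not tested, and what the title numbers stand for is not stated in the labels.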
